A study of Mus musculus with 12 samples.

Results

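Whole, fully grown mouse oocytes at the germinal vesicle (GV) stage were compared after 14 and after 10 cycles of cDNA amplification. The libraries were chosen by the cycle number in their labels, which gave 2 whole oocytes at 10 cycles and 2 at 14 cycles, 4 of the 12 libraries of the series. Each library was a poly(A) single oocyte RNA-seq (soRNA-seq) library from 1 oocyte. The series holds whole oocytes amplified for 10, 14 or 18 cycles and fractions of oocytes, with ERCC RNAs, a set of synthetic RNAs, added in the same amount to every lysate. Oocytes of both groups came, per the study's methods, from B6D2F1 mice aged 12 weeks, with no transgene or treatment named, and were released from ovaries in M2 medium with milrinone, which keeps the nuclear envelope intact. The methods speak of 1 healthy female, so the 4 oocytes may share 1 animal. The tests then measure only the spread between these oocytes and their libraries, and each group holds only 2 oocytes.

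The GV oocyte is arrested in prophase of the first meiotic division, and the large nucleus, the germinal vesicle, gives the stage its name. During growth it builds a glycoprotein coat, the zona pellucida, secretes factors that act on the surrounding granulosa cells, and stores mRNAs and proteins that the egg and the early embryo will use. Transcription stops at the end of growth, so the RNA of a fully grown oocyte is largely a stored maternal pool.

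Counts on genes numbered 11597144 and 9189672 at 10 cycles and 12349577 and 13806199 at 14 cycles. The files hold 55573 genes. Genes with at least 1 count numbered 23022 and 21146 at 10 cycles and 22853 and 23008 at 14 cycles, and 17766 genes had a count in all 4 libraries. Replicate 2 at 10 cycles had the fewest counts and the fewest detected genes. When all libraries were drawn down to its total, the genes detected numbered 22359 and 21146 at 10 cycles and 22097 and 21975 at 14 cycles, so it remained lowest at equal depth. Testing was limited to genes that reached 5 counts in 2 or more of the 4 libraries. These 17432 genes included 13860 protein-coding genes, 2713 long non-coding RNA genes and 745 pseudogenes.

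Of the counts on genes, protein-coding genes took 95.2% and 95.5% at 10 cycles and 93.7% and 95.1% at 14 cycles. Long non-coding RNA genes took 2.78% and 2.73% at 10 cycles and 2.88% and 2.87% at 14 cycles, and pseudogenes took 0.478% and 0.472% at 10 cycles and 0.505% and 0.518% at 14 cycles. The mean share of protein-coding genes was 95.3% ± 0.227 (SD, n = 2) at 10 cycles and 94.4% ± 0.968 (SD, n = 2) at 14 cycles, a difference smaller than the spread at 14 cycles. Long non-coding RNA genes and pseudogenes differed by more than their spread within each pair. The transcriptome was not dominated by a few genes. Of all counts, the 10 genes with the most held 4.80% and 4.01% at 10 cycles and 5.84% and 4.60% at 14 cycles, and the top 1000 held 51.1% and 51.6% at 10 cycles and 51.5% and 50.7% at 14 cycles. Between 930 and 965 genes were needed to reach 50% of the counts of a library.

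Most of the 20 genes with the highest level were genes known from the oocyte, beside 3 genes of a ribosomal RNA (rRNA) locus. Levels were compared between genes per length, as TPM computed from counts and merged exon lengths. The highest means were those of the rRNA-locus genes AY036118, 12172, and CT010467.1, 9345, followed by 3 protein-coding genes. H1foo, the oocyte linker histone, had levels of 9168 and 8362 at 10 cycles and 9690.3 and 9877 at 14 cycles. Elobl, an elongin B-like gene, stood at 8615 and 8668 at 10 cycles and 8491 and 8609.6 at 14 cycles. Gdf9, a growth factor by which the oocyte acts on granulosa cells, stood at 8572 and 8068 at 10 cycles and 8554 and 9100.1 at 14 cycles. H1foo was lowest in replicate 2 at 10 cycles and highest at 14 cycles, and in all 3 genes the 4 oocytes lay close together, with a mean over the 4 libraries of 9274 ± 678 (SD, n = 4) for H1foo, 8596 ± 74.9 for Elobl and 8573 ± 422 for Gdf9. Others among the 20 with the highest level were Padi6, Zbed3, Dppa3, Zp3, Zp2, Bcl2l10, Ldhb, Oosp1, Fbxw24, Uchl1, Nlrp14 and Bmp15, with means from 4250.1 for Bmp15 to 7735 for Zbed3. Khdc3 and the overlapping gene Gm20509 were also among the 20. Reads in their shared exons cannot be assigned to one of them with certainty and may have been counted for both. Gm42418, which overlaps AY036118 and CT010467.1, was also among them, at 6904.

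**Figure D1:**
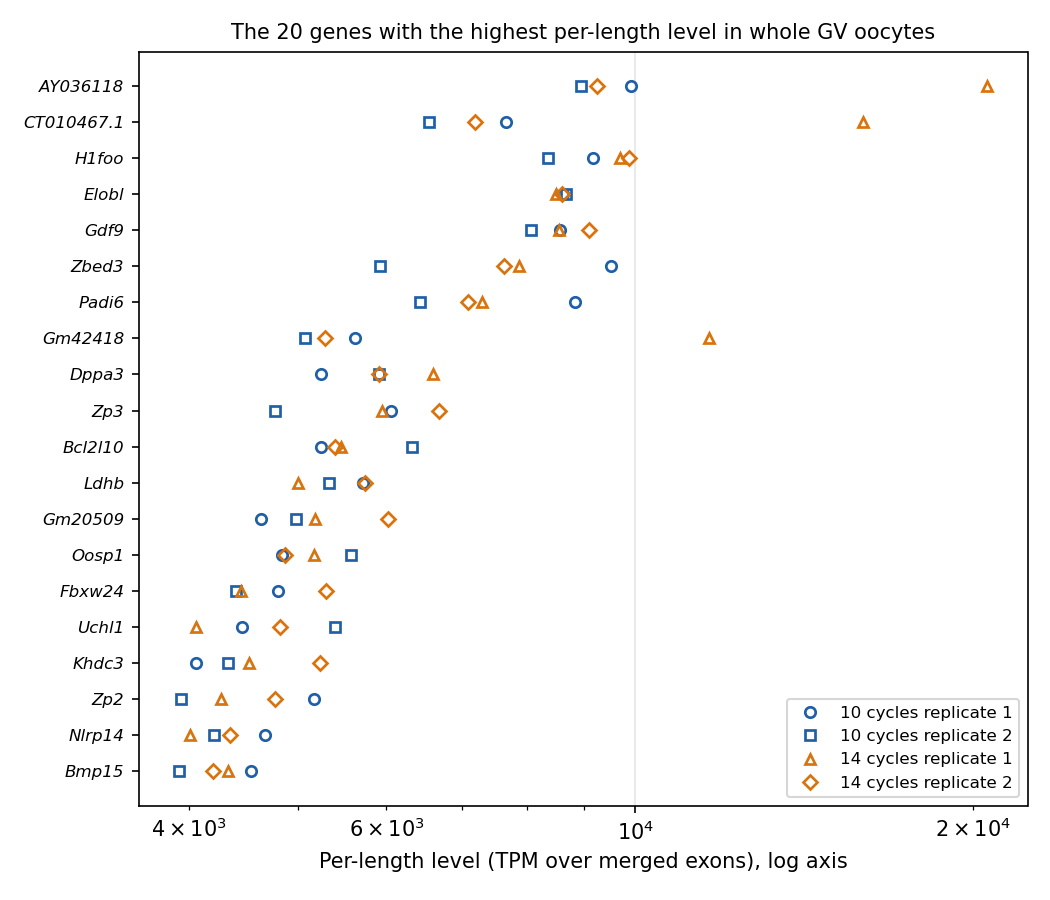
Per-length level (TPM over merged exons, log axis) of the 20 genes with the highest mean level, with 1 symbol for each of the 4 oocytes. Most genes lie within a narrow range in all 4 oocytes, whereas the 3 rRNA-locus genes AY036118, CT010467.1 and Gm42418 lie far higher in replicate 1 at 14 cycles, where AY036118 reached 20581.

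Genes of the zona pellucida and of sperm reception were all detected (6 of 6 tested), with summed per-length levels of 14824 and 11566 at 10 cycles and 13765 and 15476 at 14 cycles. Zp3, Zp2 and Zp1, which encode the coat glycoproteins, had mean levels of 5862, 4537 and 1724. Astl, the protease that later cleaves ZP2, had a mean of 1117. The sperm receptor Izumo1r (Juno) and the tetraspanin Cd9, both needed for gamete fusion, were lower, at 322 and 346. Among secreted growth factors and the receptor Kit, Gdf9 and Bmp15 led with mean levels of 8573 and 4250.1, against 238 for Kit, 224 for Fgf8 and 118 for Bmp6. The sums of the zona list were lowest in replicate 2 at 10 cycles, and so were those of the subcortical maternal complex, a protein assembly beneath the oocyte membrane that the early embryo needs. For the 8 of 8 tested members of this complex list the sums were 31066 and 24798 at 10 cycles and 27696 and 29036 at 14 cycles. Zbed3 (7735), Padi6 (7414), Khdc3 (4539) and Ooep (3811) had the highest mean levels of its members. Replicate 2 at 10 cycles had the lowest level of Zbed3 and of Padi6, with 5919 and 6425, and replicate 1 at 10 cycles the highest, with 9511 and 8829.9.

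Genes that hold the meiotic arrest or drive its release were also all detected (17 of 17 tested). The kinase Mos had the highest mean per-length level of this list, 2898, followed by securin, Pttg1, at 1636 and the oocyte kinase Wee2 at 519. Components of the arrest pathway were lower, with Gpr3, the receptor that keeps cAMP high, at 128, the phosphodiesterase Pde3a at 111 and the adenylyl cyclase Adcy3 at 2.42. The cyclin Ccnb1 stood at 263 and its kinase Cdk1 at 141. Among spindle and kinetochore genes (12 of 13 tested), the checkpoint gene Bub1b led at 1119.7, with Aurka at 339.9 and Aurkc at 215. Rec8, the meiotic cohesin subunit, was the member that the filter removed, with counts of 0 and 0 at 10 cycles and 0 and 0 at 14 cycles.

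Both arms of maternal mRNA control were represented. Of the storage and repression factors (11 of 11 tested), Zar1 had a mean per-length level of 1432, the oocyte cap-binding protein gene Eif4e1b 1097, Lsm14b 964 and the polyadenylation regulator Cpeb1 895. Of the decay factors (11 of 11 tested), Btg4, which brings the CCR4-NOT deadenylase to maternal mRNAs, led at 1985, followed by the decapping factor Dcp1a at 376 and the deadenylase genes Cnot7 at 204 and Cnot6l at 200.3. Chromatin and imprint factors held some of the highest levels (13 of 13 tested), with H1foo at 9274, Dppa3 at 5915, the histone chaperone Npm2 at 3459 and the DNA methyltransferase Dnmt1 at 1143. Genes of small RNA pathways were lower (8 of 8 tested), led by Dicer1 at 143 and Mael at 76.4. Of the oocyte transcription factors (9 of 10 tested), Obox2 and Obox5 had means of 1754 and 1390.0, Nobox 815 and Figla 189. Sohlh1, which acts in early follicles, was the member removed by the filter, at 0.734. A further list of oocyte genes, some of them secreted or at the surface (10 of 10 tested), was led by Bcl2l10 at 5608, Oosp1 at 5116, Oas1d at 3151 and Oas1e at 3072.

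Large gene families were compared by their median per-length level, which was 10.9 over all genes tested. The median was 109 for nuclear genes of oxidative phosphorylation (83 of 86 tested), 136 for proteasome subunits (37 of 39), 68.6 for translation initiation factors (54 of 55) and 27.5 for cytoplasmic ribosomal proteins (84 of 86). Reads of ribosomal protein genes can be split with their many pseudogenes, so these levels are uncertain. Over the members that passed the filter, families with many oocyte-expressed members had higher medians, 399.8 for Nlrp genes (12 of 17), 1016 for Obox genes (4 of 7) and 252 for Oog and PRAME-like genes (8 of 16), again with near-identical members. The other members of these families had too few counts to enter the medians. Within the Nlrp family the range ran from Nlrp14 at 4311 to Nlrp3 at 0.684, and Nlrp1a and Nlrp1b had no count. Zfp zinc finger genes had a median of 8.65 (307 of 365). Replication-dependent histone genes, whose mRNAs in most cells carry no poly(A) tail, had a median of 8.69 over the 26 of 67 tested, and Hist1h2bc stood out among them at 317.

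Genes of stress and death pathways were set beside the median of all genes tested, 10.9. Immediate early and heat shock genes (10 of 11 tested) had a median per-length level of 6.76, with Dnajb1 at 230.0 and Dusp1 at 125 but Fos at 1.28 and Jun at 0.458. Apoptosis and p53 target genes (7 of 9 tested) had a median of 11.6, led by Mdm2 at 72.9, and the death effectors Pmaip1 (0.341) and Bbc3 (0.108) were near 0.

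Of the counts on genes, those of the mitochondrial genome took 0.329% and 0.197% at 10 cycles and 0.284% and 0.301% at 14 cycles. Of its 37 genes 12 were tested and 14 had no count in any library. The ribosomal RNA genes mt-Rnr2 and mt-Rnr1 and the protein genes mt-Cytb, mt-Co1 and mt-Nd1 had the highest levels. Counts of mt-Co1, a subunit of complex IV, were 6972 and 1949 at 10 cycles and 3617 and 7413 at 14 cycles. Counts of mt-Nd1, a subunit of complex I, were 3675 and 1018 at 10 cycles and 2339 and 3550 at 14 cycles. In both genes the 2 libraries at 10 cycles were the farthest apart and enclosed those at 14 cycles after scaling, with normalized counts of mt-Nd1 from 1329 to 3679.8. By contrast, mt-Atp6, mt-Atp8, mt-Nd3 and mt-Nd4l had no count, and mt-Co2 and mt-Co3 had 1 count each over the 4 libraries. Mouse chromosomes carry near-identical copies of parts of the mitochondrial genome, with which these genes may share reads, so their counts and the mitochondrial share are uncertain.

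Among the 20 genes with the highest level, those of the rRNA locus differed most in log2 fold change between the cycle numbers, by 0.66 to 0.71. The test of edgeR given with the comparison did not call them, but it called all 3 without the filter on low counts and without replicate 2 at 14 cycles. CT010467.1, AY036118 and Gm42418 overlap one another on chromosome 17, from 39846353 to 39848827 (GRCm38), and CT010467.1 is annotated as rRNA. Poly(A) selection removes most but not all rRNA. Of the counts on genes, the 3 together took 1.18% and 1.04% at 10 cycles and 2.53% and 1.14% at 14 cycles. AY036118 lies within the span of CT010467.1 on the same strand, and both had many counts. Whether the same reads were counted for several of these genes was not tested, so this share may count reads more than once. For CT010467.1 the files gave 67474 and 59768 normalized counts at 10 cycles and 144446 and 63681 at 14 cycles. Replicate 1 at 14 cycles stood above the other 3 libraries, which lay close together. The gene Gm26917 lies 11 bases before this locus, from 39843013 to 39846341, and had another pattern, with 6146 and 268 normalized counts at 10 cycles and 5328 and 5444 at 14 cycles. It was low in replicate 2 at 10 cycles and even in the other 3 oocytes. The oocyte that stood apart was thus not the same for these neighbours. Whether reads of other rDNA copies entered either count was not tested.

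The comparison of 14 with 10 cycles asked whether 4 more cycles of amplification changed the measured abundance of genes. At a Benjamini-Hochberg adjusted p under 0.01, the quasi-likelihood test of edgeR called 0 of 17432 genes, 0%, and the smallest adjusted p was 0.171. At an unadjusted p under 0.05 the count was 1104, 6.33% of the genes tested, and DESeq2 called 38 genes at the threshold of 0.01. Of the 1104, 511 (2.93%) were higher and 593 (3.4%) lower at 14 cycles, so that 46.3% were higher. With size factors from the ERCC RNAs this share was 56.5%. Leaving out replicate 1 at 10 cycles gave 6 calls and 3353 genes at an unadjusted p under 0.05, leaving out replicate 1 at 14 cycles gave 2 and 654, and leaving out replicate 2 at 14 cycles gave 8 and 565.

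Most abundant genes differed little. Over the 9452 genes with a mean of at least 100 normalized counts, the median absolute log2 fold change was 0.17, and the 95% interval of the fold change had a median half-width of 0.45. This interval lay within a 2-fold change either way for 8153 of them (86.3%). Over all genes tested it did so for 8579 (49.2%), and for the others the interval reached or passed a 2-fold change. The fitted fold change exceeded 2-fold for 55 genes with a mean of at least 100, 26 higher and 29 lower at 14 cycles.

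Oocyte RNA relative to the added ERCC RNAs did not separate the groups. Gene counts per ERCC count were 323 and 360.0 at 10 cycles and 347 and 354 at 14 cycles, with Wilson 95% intervals from 320.1 to 327 for the lowest and from 356 to 364 for the highest library. The 2 libraries at 10 cycles enclosed both at 14 cycles. The mean was 342 ± 25.8 (SD, n = 2) at 10 cycles and 350.2 ± 4.84 (SD, n = 2) at 14 cycles, a log2 difference of 0.04 (exact two-sided permutation p = 1, where 2 against 2 libraries cannot give a p below 0.333). Between 52 and 59 of the 92 ERCC RNAs were detected in a library.

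Genes were named for the comparison among the 11099 tested genes with a mean of at least 50 normalized counts. Of these, 887 (7.99%) had an unadjusted p under 0.05 and groups that did not overlap, 378 higher and 509 lower at 14 cycles, and the 8 with the largest log2 difference in each direction were taken. In the edgeR test given with the comparison none of these 16 passed the adjusted threshold, and their lack of overlap was part of the choice. DESeq2, run with the same filter on low counts, called Cebpb, as did edgeR with a block of crossed replicate numbers. Without the filter edgeR called 8 of them, Cebpb, Bmp7, Gli3, Rbmxl2, Grem1, Zfp521, Dedd2 and Zfp707, and it called Cebpb without either replicate at 14 cycles and Gli3 without replicate 1 at 14 cycles.

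The largest lower value belonged to Cebpb, a bZIP transcription factor that acts in inflammation and in granulosa cells at ovulation. It had 330.4 and 175 normalized counts at 10 cycles and 17.8 and 13.9 at 14 cycles, a log2 fold change of -4.00 (SE 0.42, 95% interval -4.96 to -3.03) and an adjusted p of 0.171 in edgeR. Both oocytes at 14 cycles were far below both at 10 cycles, and Cebpb was called by DESeq2. Of the 7 others, Bmp7, a secreted BMP, had 94.1 and 128 normalized counts at 10 cycles and 33.7 and 4.90 at 14 cycles, with a log2 fold change of -2.54 (SE 0.71). Grem1, a secreted BMP antagonist, had 168 and 195 normalized counts at 10 cycles and 67.4 and 41.7 at 14 cycles, with -1.73 (SE 0.33). Gli3, a transcription factor of hedgehog signalling, had 449 and 722 normalized counts at 10 cycles and 254 and 27.8 at 14 cycles, with -2.06 (SE 0.75). In Bmp7 and Gli3 the 2 oocytes at 14 cycles differed from each other several-fold, replicate 2 being the lower. Without replicate 2 at 14 cycles the log2 fold change was -1.72 for Bmp7 and -1.20 for Gli3, and without replicate 1 it was -4.46 and -4.39. Rbmxl2, an RNA-binding protein gene best known from male germ cells, was even within groups, with 117 and 118 normalized counts at 10 cycles and 30.9 and 25.3 at 14 cycles, with a log2 fold change of -2.06 (SE 0.35). Tnn, a tenascin gene, had 48.1 and 128 normalized counts at 10 cycles and 27.1 and 27.8 at 14 cycles, and Rap2c, a small GTPase gene, had 42.1 and 148 normalized counts at 10 cycles and 31.8 and 35.2 at 14 cycles. In both the high value was that of replicate 2 at 10 cycles, and without this oocyte the log2 fold change went from -1.67 to -0.80 for Tnn and from -1.49 to -0.32 for Rap2c. H1fx, a linker histone gene, had a log2 fold change of -1.34 (SE 0.42). Annotated genes overlap Cebpb, Gli3 and H1fx here and Dedd2, Myh7, Pigh, Slc30a7, Whamm, Lrrc8d, Slc1a1, Tnc, Cyp11a1 and Ctsl in the paragraphs that follow, so their counts are uncertain to that extent.

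The genes named as higher at 14 cycles, like most of those named as lower, were of low abundance. Zfp521, a zinc finger regulator, had 22.0 and 14.4 normalized counts at 10 cycles and 35.6 and 149 at 14 cycles, with a log2 fold change of 2.32 (SE 0.69). Dedd2, a death effector domain gene, had 35.0 and 3.92 normalized counts at 10 cycles and 109 and 79.3 at 14 cycles, with a log2 fold change of 2.21 (SE 0.73). Id2, an inhibitor of bHLH factors, had 35.0 and 24.8 normalized counts at 10 cycles and 119 and 65.4 at 14 cycles, with a log2 fold change of 1.61 (SE 0.44). The high value of Zfp521 was that of replicate 2 at 14 cycles, without which its log2 fold change was 0.95, and in Dedd2 the 2 oocytes at 10 cycles differed from each other several-fold. Without replicate 1 at 10 cycles the log2 fold change of Dedd2 was 4.54, and without replicate 2 at 10 cycles it was 1.42. Zfp707 was the most abundant of the 8, with 139 and 39.2 normalized counts at 10 cycles and 232 and 305 at 14 cycles, with a log2 fold change of 1.57 (SE 0.50). Without replicate 2 at 10 cycles, its lowest oocyte, this was 0.95. Tmub2 had 32.0 and 24.8 normalized counts at 10 cycles and 37.4 and 132 at 14 cycles, with a log2 fold change of 1.57 (SE 0.60). It was high in replicate 2 at 14 cycles only, and without this oocyte its log2 fold change was 0.39. Myh7, Pigh and Slc30a7 had log2 fold changes of 1.52, 1.51 and 1.48, and leaving out any 1 library left each above 1.

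Chrdl1, a secreted BMP antagonist on chromosome X, fell just below the abundance limit and was named because alternatives called it. It had 0 and 2.61 normalized counts at 10 cycles and 87.0 and 99.7 at 14 cycles. The raw counts were 2 over both libraries at 10 cycles and 215 over both at 14 cycles, a ratio of 82.8 after scaling with an exact 95% counting interval from 22.6 to 688. This interval treats each read as independent and does not cover the spread between oocytes, and edgeR gave an adjusted p of 0.301. The log2 fold change was 6.19 with all 4 libraries and 5.10 without replicate 1 at 10 cycles. Without replicate 2 at 10 cycles it was 9.68, a value that rests on 0 counts at 10 cycles and is no measured fold.

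The calls of DESeq2 were mostly lower at 14 cycles, 33 of 38, and 37 of them had a mean of at least 100 normalized counts. Whamm, a regulator of actin at membranes, had 1627 and 1777 normalized counts at 10 cycles and 687 and 731 at 14 cycles, with a log2 fold change in edgeR of -1.26 (SE 0.14, 95% interval -1.59 to -0.94) and an adjusted p of 0.171. Pdcd7, a component of the minor spliceosome, had 5277 and 7888 normalized counts at 10 cycles and 2938 and 3333 at 14 cycles, with a log2 fold change of -1.07 (SE 0.20). Tfap2e, a transcription factor of the AP-2 family, had 3523 and 5130.1 normalized counts at 10 cycles and 2029 and 2283 at 14 cycles, and the 95% interval of its log2 fold change was -1.45 to -0.56. In each both oocytes at 14 cycles were below both at 10 cycles, and in Pdcd7 and Tfap2e replicate 2 at 10 cycles was the highest. All 38 calls of DESeq2 had groups that did not overlap, so nothing is read from this for single genes. Phc2, a Polycomb gene, Msrb3, a methionine sulfoxide reductase gene, and Lrrc8d, a subunit of volume-regulated anion channels, had log2 fold changes of -1.01, -1.27 and -1.21. All 6 were also called when no filter on low counts was applied. Whole oocytes at 18 cycles were scaled together with these 4. Of the 14 genes named here or above as lower at 14 cycles, 10 had both 18-cycle values above both values after 14 cycles, and 5 had both below both values after 10 cycles. Of the 9 named as higher, 4 had both 18-cycle values below both after 14 cycles and 2 had both above both after 10 cycles. These genes were chosen by their values after 10 and 14 cycles, and the shares over all genes were not taken. Nothing is therefore read from these counts as a trait of the named genes. On that scale Whamm had 498 and 5237 normalized counts at 18 cycles, against 870.1 and 972 after 10 and 374 and 400.0 after 14, and Cebpb had 71.8 and 388 normalized counts at 18 cycles, against 177 and 95.7 after 10 and 9.69 and 7.61 after 14. Msrb3 had 235 and 407 normalized counts at 18 cycles, against 735 and 621 after 10 and 255 and 313 after 14, and Grem1 had 2.39 and 4.79 normalized counts at 18 cycles, against 90.0 and 106 after 10 and 36.7 and 22.8 after 14. Chrdl1 had 2.39 and 0 normalized counts at 18 cycles, against 0 and 1.43 after 10 and 47.4 and 54.6 after 14. Values of 2.39 and 4.79 at 18 cycles lie near the floor of these libraries and rest on few reads. Abundant genes also differed there. Khdc3 had 109580 and 68429 normalized counts at 18 cycles, against 15869 and 17992 after 10, and Oosp1 had 1192 and 2456, against 8981 and 10981. The values are therefore not read as a course over the cycle numbers.

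**Figure D2:**
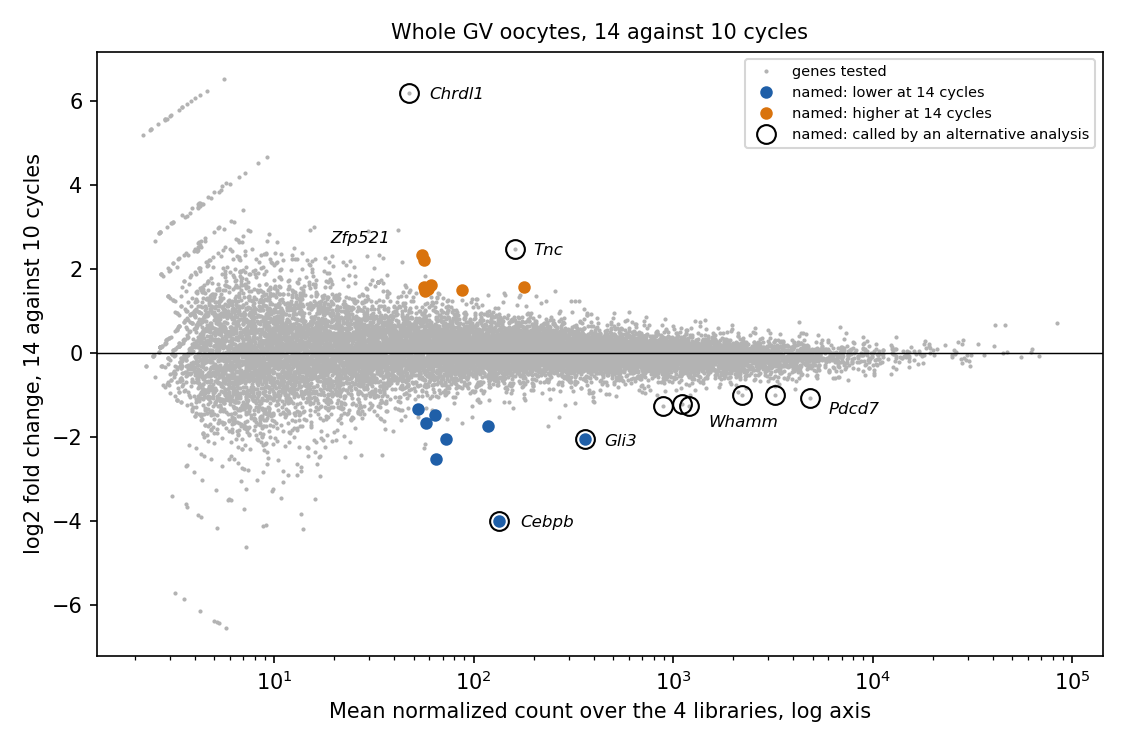
Log2 fold change at 14 against 10 cycles in edgeR (y axis) against the mean normalized count over the 4 libraries (x axis, log), with 1 point for each of the 17432 genes tested. Filled points are the 8 lower and 8 higher genes named for the comparison, and open circles are the 10 named because an alternative analysis called them, with Cebpb at -4.00 and Chrdl1 at 6.19.

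The lists of oocyte genes moved little as groups. The median log2 fold change of all genes tested was -0.01. It was 0.21 for the zona and sperm reception list, 0.07 for growth factors, 0.03 for the subcortical maternal complex, -0.06 for the further list of oocyte genes, -0.11 for oocyte transcription factors, -0.06 for meiotic arrest and resumption and -0.10 for spindle genes. It was -0.02 for mRNA storage, -0.05 for mRNA decay, -0.04 for chromatin and imprint factors, 0.25 for small RNA pathways, -0.11 for immediate early genes and 0.02 for apoptosis genes. No member of these 13 lists was called by edgeR. At an unadjusted p under 0.05, members of single lists numbered from 0 to 2, too few to set against the background of 6.33%.

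The members with an unadjusted p under 0.05 included genes of the mRNA storage and mRNA decay lists. Dazl, an RNA-binding activator of translation in germ cells, had 5579 and 5289 normalized counts at 10 cycles and 8702 and 7957 at 14 cycles, with a log2 fold change of 0.62 (SE 0.13), and DESeq2 called it. Lsm14b, a repressor of stored mRNAs, had 11436 and 12535 normalized counts at 10 cycles and 8818 and 7728 at 14 cycles, with a log2 fold change of -0.53 (SE 0.13). Cnot6l, a deadenylase gene, had 7973 and 10328 normalized counts at 10 cycles and 5947 and 5799 at 14 cycles, with a log2 fold change of -0.64 (SE 0.15). Dazl was higher and both others were lower at 14 cycles. These 3 genes were chosen by their unadjusted p, so nothing is read from the lack of overlap of their groups. Trim28, the corepressor that protects imprints with ZFP57, had 2878 and 3067 normalized counts at 10 cycles and 1875 and 1434 at 14 cycles, with a log2 fold change of -0.85 (SE 0.16), and DESeq2 called it as well. Hira, a histone H3.3 chaperone, had 474 and 524 normalized counts at 10 cycles and 287 and 225 at 14 cycles, with a log2 fold change of -0.96 (SE 0.21). The remaining ones in these lists were Cd9, Fgf8, Nobox, Fzr1, Ythdf2 and Ddx4 with higher values, and Adcy3, Sgo2a and Cdkn1a with lower values at 14 cycles, with log2 fold changes from -0.91 for Adcy3 to 0.68 for Ddx4. None of them had an adjusted p under 0.467 in edgeR.

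The larger families were likewise near the median of all genes. Their median log2 fold change, with the number of members at an unadjusted p under 0.05 in each direction, was -0.11 (0 higher and 0 lower of 84) for cytoplasmic ribosomal proteins, -0.06 (0 higher and 2 lower of 83) for oxidative phosphorylation genes, -0.04 (2 higher and 0 lower of 37) for proteasome subunits and -0.02 (1 higher and 0 lower of 54) for translation initiation factors. It was -0.09 (1 higher and 0 lower of 12) for Nlrp genes, -0.15 (0 higher and 1 lower of 4) for Obox genes, 0.15 (0 higher and 0 lower of 8) for Oog and PRAME-like genes, 0.15 (1 higher and 2 lower of 26) for replication-dependent histones and -0.02 (0 higher and 1 lower of 12) for the mitochondrial genome. Zfp zinc finger genes had 0.03 (17 higher and 11 lower of 307), 9.12% of its tested members against 6.33% of all genes. Ribosomal protein genes had no member at an unadjusted p under 0.05, and their median was -0.10 under TMM and -0.09 under ERCC size factors.

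Across genes with a mean of at least 100 normalized counts, the log2 fold change had a Spearman correlation of -0.15 with transcript length and of 0.05 with GC content. Between the 2 oocytes at 10 cycles the same correlations were 0.07 and 0.12, and between those at 14 cycles 0.10 and -0.03. Genes of a library are not independent replicates, and the values are a description. The relation to length was weak, and longer transcripts tended to be slightly lower at 14 cycles.

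How much 2 oocytes differed depended on which oocyte was compared. Of the 9452 genes with a mean of at least 100 normalized counts, 241 differed by over 2-fold between the 2 oocytes at 10 cycles and 92 between those at 14 cycles. In the 4 pairs of different cycle number the counts were 113, 146, 281 and 370. All 3 pairs with replicate 2 at 10 cycles had more such genes than any of the 3 pairs without it. Within each of these sets of pairs, the pair of the same cycle number had the fewest. Across the genes tested, log10(CPM + 1) had a Pearson correlation from 0.976 to 0.985, highest within the pair at 14 cycles and lowest within the pair at 10 cycles. The SD of log2 counts within a pair, pooled over both pairs, had a median of 0.17, with 0.11 and 0.26 as quartiles, and exceeded 1 for 44 genes (0.466%). The median was 0.17 within the pair at 10 cycles and 0.11 within the pair at 14 cycles.

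The spread of the ERCC RNAs, which were added in equal amounts, is given for reference. ERCC RNAs with a mean from 100 to 1000 scaled counts had a median within-pair SD of 0.12 (10 RNAs), and those above 1000 had 0.06 (6 RNAs). Genes in the same ranges had 0.20 (6606 genes) and 0.13 (2846 genes). The genes come from separate oocytes and the ERCC RNAs number few in each range, so nothing further is read from these values.

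The 12 genes with the largest within-pair SD included 4 of the granulosa markers. Gja1, the gap junction protein that couples granulosa cells, had 377 and 0 normalized counts at 10 cycles and 27.1 and 205 at 14 cycles. Inha, the inhibin alpha subunit, had 397 and 3.92 normalized counts at 10 cycles and 42.1 and 361 at 14 cycles. Hsd3b1, an enzyme of progesterone synthesis, had 719.9 and 7.83 normalized counts at 10 cycles and 33.7 and 186 at 14 cycles. Replicate 1 at 10 cycles and replicate 2 at 14 cycles were high and the other oocyte of each pair was low, so the groups overlapped in all 3 genes. Cyp11a1, which makes pregnenolone from cholesterol, followed the same order with 773 and 17.0 normalized counts at 10 cycles and 57.1 and 219.9 at 14 cycles, as did the lysosomal protease gene Ctsl with 305 and 10.4 normalized counts at 10 cycles and 82.3 and 176 at 14 cycles and the epoxide hydrolase gene Ephx2 with 274 and 13.1 normalized counts at 10 cycles and 56.1 and 79.3 at 14 cycles. This is the order of the summed granulosa markers, which Gja1, Inha, Hsd3b1 and Cyp11a1 help to set. Of the 200 genes with the largest within-pair SD 16% had this order, and of all 9452 genes with a mean of at least 100 normalized counts 4.75%. Gm26917, also among the 12 and given above with the rRNA locus, had this order too, although 3 of its 4 values differed little.

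The other 5 of the 12 genes did not follow this order. The uncharacterized gene 4931408C20Rik had 1.00 and 479 normalized counts at 10 cycles and 420.1 and 238 at 14 cycles. Slc1a1, a glutamate and aspartate transporter, had 1.00 and 181 normalized counts at 10 cycles and 297 and 37.6 at 14 cycles. Both were nearly absent from replicate 1 at 10 cycles. Tnc, the matrix glycoprotein tenascin C, had 28.0 and 70.5 normalized counts at 10 cycles and 539.9 and 3.27 at 14 cycles, so that a single oocyte, replicate 1 at 14 cycles, held most of its counts. Brinp2 with 55.1 and 102 normalized counts at 10 cycles and 241 and 17.2 at 14 cycles and the sulfotransferase gene Ust with 60.1 and 338 normalized counts at 10 cycles and 576 and 94.0 at 14 cycles were also highest in that oocyte. The within-pair SD was 3.55 for Tnc, 3.57 for Slc1a1 and 1.80 for Ust, on the log2 scale.

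**Figure D3:**
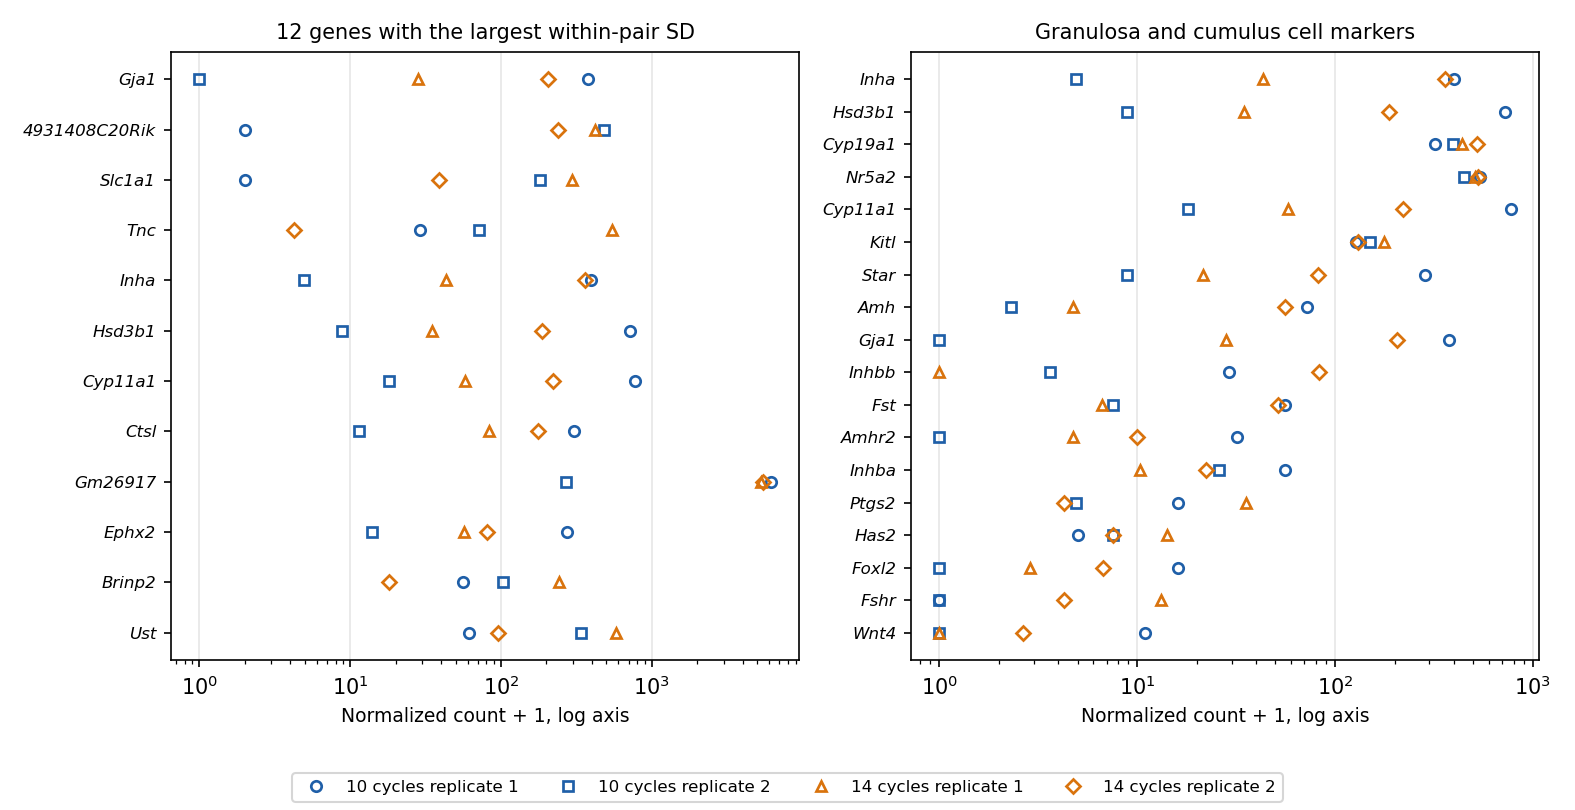
Normalized count + 1 (log axis) in each of the 4 oocytes, for the 12 genes with the largest within-pair SD (left) and for the 18 granulosa and cumulus cell markers (right). Inha, Hsd3b1, Cyp11a1 and Gja1 are high in replicate 1 at 10 cycles and replicate 2 at 14 cycles, while Cyp19a1, Nr5a2 and Kitl differ little within the pairs.

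Several markers of the somatic cells around the oocyte differed strongly between oocytes of the same cycle number. All 18 granulosa and cumulus markers had at least 1 count in some library and 16 were tested. Their summed per-length level was 337 and 56.6 at 10 cycles and 82.7 and 204 at 14 cycles, and Inha was the most abundant over the 4 libraries, with a level of 75.3 in replicate 1 at 10 cycles. Cyp19a1, Nr5a2 and Kitl, by contrast, differed little within the pairs, with SDs of 0.19, 0.13 and 0.25. Cyp19a1, the aromatase gene, had 319 and 392 normalized counts at 10 cycles and 439.8 and 519.9 at 14 cycles, so that both oocytes at 14 cycles were above both at 10 cycles, with a log2 fold change of 0.43 (SE 0.20). These 3 genes made up most of the sum in replicate 2 at 10 cycles. The FSH receptor Fshr had 0 and 0 counts at 10 cycles and 13 and 4 at 14 cycles, and Foxl2, a granulosa transcription factor, had 15 and 0 counts at 10 cycles and 2 and 7 at 14 cycles. In replicate 2 at 10 cycles Gja1, Foxl2, Fshr, Amhr2 and Wnt4 had no count. No granulosa marker had an unadjusted p under 0.05 between the cycle numbers, and their median log2 fold change was -0.23. The part of these cells' RNA in the variable genes and in the comparison was not tested.

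Theca and stroma markers (7 of 9 tested) had summed levels of 18.3 and 2.30 at 10 cycles and 4.60 and 5.50 at 14 cycles, with Acta2 the most abundant at 1.88. Cyp17a1, the androgen-producing enzyme of theca cells, had 48 and 1 counts at 10 cycles and 2 and 10 at 14 cycles, and the collagen gene Col1a1 had 16 and 0 counts at 10 cycles and 0 and 0 at 14 cycles. Both were highest in replicate 1 at 10 cycles, while Dcn, with 32 and 12 counts at 10 cycles and 77 and 16 at 14 cycles, was highest in replicate 1 at 14 cycles and Pdgfra, with 2 and 21 counts at 10 cycles and 12 and 14 at 14 cycles, was lowest in replicate 1 at 10 cycles. Replicate 1 at 10 cycles also had the highest sums of this list, of the blood and immune list and of the ovarian surface and epithelial list. Blood and immune markers (2 of 10 tested) had sums of 16.3 and 3.19 at 10 cycles and 4.24 and 6.99 at 14 cycles, with Cd68 the most abundant at 3.73, and Hba-a1, Hba-a2, Hbb-bt and Cd3e had no count. Lyz2, of macrophages and neutrophils, had 57 and 0 counts at 10 cycles and 2 and 10 at 14 cycles. Ovarian surface and epithelial markers (3 of 6 tested) summed to 15.3 and 6.74 at 10 cycles and 7.13 and 7.01 at 14 cycles, led by Upk3b at 4.18, and Krt18 and Krt19 were found only in replicate 1 at 10 cycles. Endothelial markers (3 of 5 tested) had sums of 32.8 and 32.3 at 10 cycles and 28.7 and 36.7 at 14 cycles, led by Pecam1 at 22.5. Kdr had 14.0 and 31.3 normalized counts at 10 cycles and 50.5 and 38.4 at 14 cycles, with both oocytes at 14 cycles above both at 10 cycles, and Cdh5 had 1 and 1 counts at 10 cycles and 0 and 0 at 14 cycles. For these lists the median log2 fold change over the few tested members was -1.31 for theca and stroma, -1.13 for blood and immune, -0.44 for surface and epithelial and -0.01 for endothelial markers, and no member had an unadjusted p under 0.05. The part of these cells in the results was not tested.

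Genes that change as GV oocytes progress were taken from lists of the study made on other libraries. Of 649 genes listed as rising in both phases 648 were tested, and of 791 listed as falling in both 787. The mean of log2(normalized count + 1), centred for each gene on the 4 libraries, was 0.08 and -0.11 at 10 cycles and 0.03 and 0.00 at 14 cycles for the rising list, -0.05 and 0.09 at 10 cycles and -0.03 and 0.00 at 14 cycles for the falling list and 0.04 and -0.08 at 10 cycles and 0.02 and 0.03 at 14 cycles for all genes tested. The difference between the rising and the falling list was 0.13 and -0.19 at 10 cycles and 0.06 and 0.00 at 14 cycles. It was highest in replicate 1 and lowest in replicate 2 at 10 cycles, so the pair at 10 cycles enclosed both oocytes at 14 cycles. Genes listed as falling and then rising had 0.04 and 0.06 at 10 cycles and -0.03 and -0.07 at 14 cycles, both oocytes at 10 cycles being above both at 14 cycles, and genes listed as rising and then falling had -0.03 and 0.06 at 10 cycles and -0.01 and -0.01 at 14 cycles. Replicate 2 at 10 cycles was also the oocyte with the low Gm26917 count, the fewest detected genes and the lowest granulosa marker sum. Between the cycle numbers the median log2 fold change was 0.00 for the rising and -0.02 for the falling list, with 25 higher and 28 lower and 14 higher and 28 lower at 14 cycles at an unadjusted p under 0.05, against a median of -0.01 for all genes. These members were 8.18% of the rising and 5.34% of the falling list, beside 6.33% of all genes tested.

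The variability of the named genes was also examined in the 2 whole oocytes at 18 cycles, which had not entered their choice. For the 200 genes with the largest within-pair SD at 10 and 14 cycles, the median absolute log2 difference between the 2 oocytes at 18 cycles was 0.80, against 0.42 for all 9452 genes, and 43.5% against 14.8% differed by over 2-fold. The 200 genes were not matched to all genes in abundance. The within-pair SD was higher for genes with fewer counts, as given above, and its part in this gap was not tested. Gm26917 had 13269 and 9.57 normalized counts at 18 cycles, on the scale of all 6 whole oocytes, where it ranged from 146 to 3286 at 10 cycles. Inha had 125 and 4.79 there. Of the 12 genes with the largest SD, 10 differed by over 2-fold between the oocytes at 18 cycles. The widest gaps beside Gm26917 and Inha included Ephx2 with 117 and 9.57 and Ctsl with 35.9 and 0, and the narrowest were 43.1 and 38.3 for Slc1a1, 43.1 and 62.2 for Tnc and 40.7 and 19.1 for Gja1. The summed per-length level of the granulosa markers was 97.9 and 20.7 at 18 cycles, so that this pair also held an oocyte with a higher and one with a lower level. Low values at 18 cycles rest on few reads. Depth differed between the cycle numbers, and the spread was not compared between them.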

How the data were processed

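The lysate of each whole oocyte went through oligo(dT) capture of mRNA and cDNA synthesis, with 10 or 14 PCR cycles, before Nextera library preparation, which does not mark strand. Counts are those the authors placed in the series as raw values, from which PCR duplicates had not been removed. The submitters' processing notes name cutadapt 2.5, STAR 2.7.2a, HTSeq 0.9.1 and mm10, while the study's methods give other versions of these tools. Whether counting used strand was not settled, so genes that overlap on opposite strands are uncertain. Reads on no feature (10.5% and 10.6% at 10 cycles and 10.8% and 10.4% at 14 cycles) and ambiguous reads (2.64% and 2.72% at 10 cycles and 2.98% and 2.75% at 14 cycles) were left out of library sizes and tests.

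Symbols, coordinates and lengths came from GENCODE mouse release 21 (GRCm38), which held 55480 of the 55573 gene IDs. Counts of the 4 libraries were fitted with edgeR 4.0.16 in R 4.3.3 (quasi-likelihood test), with median-ratio size factors over genes, the filter of 5 counts in 2 libraries, and Benjamini-Hochberg adjusted p under 0.01. DESeq2 1.42.0, TMM and ERCC size factors, other filters, a fit of all 6 whole oocytes, a replicate block and leaving out each library were alternatives. Normalized counts are counts divided by size factors, and per-length levels are TPM over merged exons. Intervals on counts (Wilson or exact) treat each read as independent and leave out the spread between oocytes. Reads copied by PCR were counted more than once, so these intervals can be too narrow even for counting error.

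Named genes were the 20 with the highest mean per-length level. Further ones were, among genes with a mean of at least 50 normalized counts, an unadjusted p under 0.05 and groups that did not overlap, the 8 largest log2 differences in each direction, and the 12 with the largest pooled within-pair SD of log2(normalized count + 1) among genes with a mean of at least 100. Up to 4 leading members of each list, marker genes at 0, and 10 genes called by the most alternatives, with ties broken by the smallest adjusted p in any of them, completed the set. Other list members were named after their values were seen. Members and lists were chosen with earlier results of these data known. Fractions of oocytes were not used here.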

Additional observations from a re-analysis of the deposited data

How the results depend on the processing

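The count of genes called by edgeR between 14 and 10 cycles was 0 (1104 at an unadjusted p under 0.05), and it was also 0 with TMM or ERCC size factors, with at least 10 counts in every library, with all 6 whole oocytes in the fit and at an adjusted p under 0.05. DESeq2 called 38 genes, with 945 at an unadjusted p under 0.05 and no adjusted p for 5070 genes, and edgeR without a filter on low counts called 93 (31 higher at 14 cycles), of which 36 were shared with DESeq2. Without the filter 1841 of 28681 genes had an unadjusted p under 0.05, and with all 6 whole oocytes 513 did. Leaving out 1 library gave 0 to 8 calls and 565 to 3353 genes at an unadjusted p under 0.05, where the lone oocyte of a group was assumed to vary like the other pair. The cause of these differences was not tested.

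With the replicate block the counts were 0 and 979. Same-numbered libraries share only a number, and the deviations of the pairs had a correlation of -0.09 over genes that had 10 or more counts in each library and -0.18 over all genes tested. A block with crossed numbers, chosen after seeing the data, called 2 genes (1283 at an unadjusted p under 0.05). Gene counts per ERCC count differed by -0.04 to 0.11 on the log2 scale when 1 library was left out, and by 0.02 to 0.04 under the other choices. The median within-pair SD ran from 0.14 with a mean of at least 500 to 0.19 with a mean of at least 50.

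Most genes named for the comparison were chosen as groups that do not overlap, so leaving out a library cannot reverse them. Tnc, whose groups overlap, had a log2 fold change of -3.85 without replicate 1 at 14 cycles and 3.47 without replicate 2. Shares of gene classes per length in place of counts gave a mean of 87.7% for protein-coding genes, 6.37% for long non-coding RNA genes, 1.56% for pseudogenes, 0.692% for the mitochondrial genome and 2.84% for the rRNA-locus genes. The last share may hold reads counted for several of its overlapping genes. With the longest transcript as the length, 19 of the 20 most abundant genes remained. Precision was lower over all genes tested, where the 95% interval of the log2 fold change had a median half-width of 0.71, against 0.45 for genes with a mean of at least 100 normalized counts.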

Other observations

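The calls of DESeq2 included further genes that edgeR did not call with the filter on low counts. Hdgf, a DNA-binding growth factor gene, had 1078 and 1141 normalized counts at 10 cycles and 542 and 571 at 14 cycles, with a log2 fold change in edgeR of -0.99 (SE 0.15). Slain1, a microtubule plus-end protein gene, had 2869 and 2695 normalized counts at 10 cycles and 1506 and 1433 at 14 cycles, with -0.92 (SE 0.13). Both were lower in both oocytes at 14 cycles. Higher values at 14 cycles were found for Sox15, an HMG-box transcription factor gene, with 137 and 138 normalized counts at 10 cycles and 332 and 316 at 14 cycles, and for Mob1a, of the Hippo pathway, with 503 and 546 normalized counts at 10 cycles and 973 and 911 at 14 cycles. These 4 genes were chosen after their values were seen, so nothing is read from the lack of overlap of their groups.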
